A study of Homo sapiens with 8 samples.

Results

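The JAK and STAT genes with their inhibitors comprised 10 genes, JAK1, JAK2, TYK2, STAT3, STAT5A, STAT5B, STAT6, SOCS3, CISH and PTPN1, of 16557 named genes on the array. The members were chosen for their place in the pathway, with earlier results of these data known. All probes whose transcript accession maps to one of them were taken, which gave 17 of 41000 probes. All 17 were kept after filtering, against 22470 probes in all, and each was well above background in 8 of 8 channels with no saturated spot. JAK1, TYK2, STAT5A, SOCS3 and CISH have 2 probes each, STAT3 has 3, and JAK2, STAT5B, STAT6 and PTPN1 have 1. Where a gene has several probes, the one of highest mean signal is called its lead probe.

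To find transcripts bound by the microRNA machinery, the study compared total RNA (T) with RNA precipitated by a monoclonal antibody against Argonaute 2 (Ago2), the protein that holds microRNAs on their target transcripts (IP). The cells were L1236, an established Hodgkin lymphoma cell line, transduced either with the empty pMSCV-PIG vector (EV) or with the same vector carrying a sponge, an RNA whose repeated sites draw miR-155 away from its targets. Both populations were sorted for the GFP that the vector encodes, so that the EV cells carry the vector too. The 4 RNA samples (EV T, EV IP, sponge T, sponge IP) were labelled in both Cy3 and Cy5 and put on 4 Agilent 2-colour arrays, IP and T of one population sharing an array. Each group is thus 1 RNA sample measured in 2 dyes. No test between groups was possible and no p-value is given. Signals are log2 values after quantile normalisation. IP/T is the log2 difference between IP and T of one population, and errors (±) are SDs across the 2 dye orientations, or over the 2 dyes for a difference between sponge and EV cells. It covers labelling and hybridisation only, not the spread between cultures or precipitations.

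JAK kinases sit on the inner tails of cytokine receptors, and when a cytokine brings receptor chains together they phosphorylate STAT proteins, which pair, enter the nucleus and switch on genes. Among the genes that STATs switch on are CISH and the SOCS genes, whose proteins bind receptors or JAKs and damp the signal, while the phosphatase PTPN1 removes phosphate from JAKs. In Hodgkin lymphoma this pathway is often active, through cytokines that the tumour cells make and through gains of JAK2 or mutations of STAT6, SOCS1 and PTPN1.

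The sponge was made against miR-155, and the sequence that it competes for is shown here because it defines the difference between the populations. The mature strand miR-155-5p is encoded at chr21:25573983-25574006 (GRCh38.p14, plus strand, RefSeq), and the capitals mark its seed, bases 2 to 8, the stretch that pairs with target transcripts.
hsa-miR-155-5p: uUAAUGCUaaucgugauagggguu
Sites for this seed in the members' transcripts were not analysed here. The arrays do not measure the mature microRNA. MIR155HG, its host transcript, differed by -0.62 ± 0.12 between sponge and EV cells in T.

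Markers of cell types were looked up for detection only, which does not establish the identity of the cells. All 8 markers of Hodgkin cell lines that were looked up, among them TNFRSF8 (CD30) and CCL17, were well above background in all 8 channels. Of 7 genes of the B cell programme 6 were kept, with MS4A1 the exception. None of 4 T cell markers was kept, and CD14 and CSF1R were kept of 4 myeloid ones. The share of spots well above background lay between 54.1% (sponge T in Cy5) and 65.7% (sponge IP in Cy5).

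In both populations the transcripts of the feedback inhibitors SOCS3 and CISH stood higher in the Ago2-IP than in T, those of TYK2 and STAT5A stood lower, and those of JAK1, JAK2, STAT3, STAT5B, STAT6 and PTPN1 lay within 2-fold of parity. An IP/T of at least 2-fold in EV cells was measured for 4 of the 17 probes (23.5%), namely both probes of SOCS3 and both of CISH, against 17.5% of all kept probes. In sponge cells the same 4 probes (23.5%) passed, against 17.5%. A T/IP of at least 2-fold in EV cells was measured for 4 probes (23.5%), both of TYK2 and both of STAT5A, against 19.0% of all kept probes. In sponge cells it was measured for 3 (17.6%), against 17.8%, with the second STAT5A probe at -0.95 ± 0.10. Counted by gene at the lead probe, 2 of 10 members reached an IP/T of 2 (EV cells), where 18.1% of 11203 named genes did, and 2 of 10 reached a T/IP of 2, where 18.8% did. These shares are near the background, so the counts are no result about the members as a set. The median log2 IP/T of the 10 lead probes came to -0.08 ± 0.19 in EV cells and to -0.09 ± 0.13 in the sponge cells, against -0.16 and -0.13 over all kept probes.

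**Figure D1:**
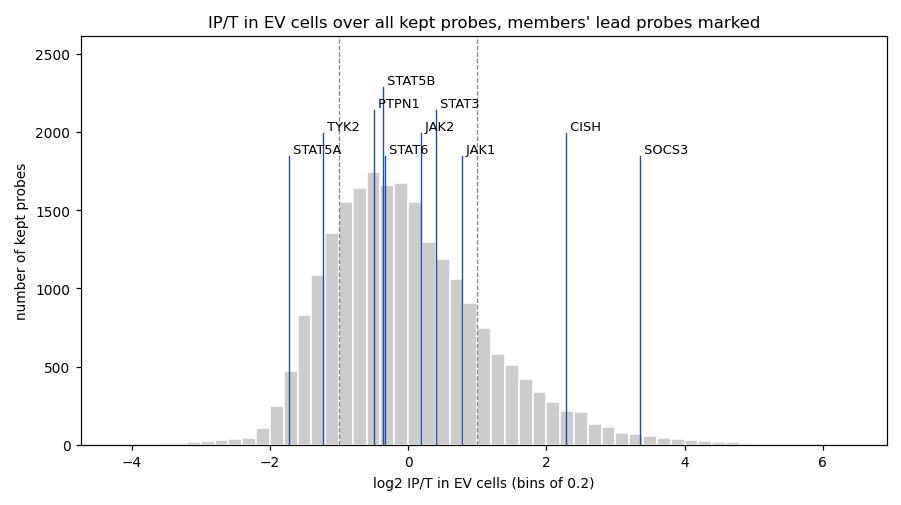
Number of kept probes (y axis) by log2 IP/T in EV cells (x axis, bins of 0.2), with a blue line at the value of each member's lead probe and dashed lines at 2-fold. SOCS3 at 3.36 and CISH at 2.29 lie in the upper tail, STAT5A at -1.72 and TYK2 at -1.23 in the lower part, and the other 6 members lie between the dashed lines.

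SOCS3 encodes a protein that binds receptors such as gp130 and blocks JAK activity there. Its lead probe (A_23_P207058) gave log2 signals of 10.15 in Cy3 and 10.14 in Cy5 in EV T, and 13.47 and 13.54 in EV IP. In sponge cells T gave 10.06 and 10.39, and IP gave 13.42 and 13.55. All 4 IP channels lay above all 4 T channels, with a gap of over 3 log2 units between them. IP/T was 3.36 ± 0.04 in EV cells, a 10.3-fold enrichment, and 3.26 ± 0.33 (9.58-fold) in sponge cells. Of all kept probes, 98.9% had a lower IP/T in EV cells. The second SOCS3 probe (A_23_P351069) pointed the same way with a smaller ratio, 1.14 ± 0.01 (2.2-fold) in EV cells and 1.11 ± 0.27 (2.15-fold) in sponge cells. Its 4 T channels ranged from 7.47 to 8.04 and its 4 IP channels from 8.73 to 8.95, without overlap. With normexp background correction (offset 50) in place of the scanner's own, this probe fell short of 2-fold in EV cells, at 0.45 with loess and Aquantile normalisation and 0.35 with quantile normalisation, whereas the lead probe stayed at 2.94 or above there under every normalisation, dye and orientation tried. With Cy5 labels alone the second probe was also under 2-fold, at 0.94 in EV cells and 0.73 in sponge cells, as it was in sponge cells on the array with IP in Cy3, at 0.92. The 2 SOCS3 probes differed by 2.23 log2 units in IP/T in EV cells, the widest of the 8 pairs of probes of one gene. The other 7 pairs differed by 0.60 or less in EV cells and by 0.75 or less in sponge cells. Which transcripts each probe detects was not tested.

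CISH, a relative of the SOCS proteins, is induced by STAT5 and acts on receptors that signal through it. Its lead probe (A_23_P144096) gave 13.31 and 13.71 in EV T (Cy3 and Cy5), and 15.89 and 15.70 in EV IP. In sponge cells T gave 13.54 and 13.91, and IP gave 15.95 and 15.96. The IP channels again lay above the T channels without overlap. Enrichment came to 2.29 ± 0.15 (4.88-fold) in EV cells and 2.23 ± 0.27 (4.69-fold) in sponge cells. The second probe (A_24_P97465) had 10.40 and 10.53 in EV T, 12.03 and 12.27 in EV IP, 10.36 and 10.54 in sponge T, and 12.37 and 12.33 in sponge IP. Its IP/T was 1.68 ± 0.27 (3.21-fold) and 1.90 ± 0.09 (3.73-fold). Both CISH probes thus lay above 2-fold in both populations, and the lowest value that any normalisation, dye or orientation gave for either was 1.30 in EV cells.

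Within the promoter windows searched, CISH also stood apart from the other members in a feature of sequence. The letters TTCNNNGAA, a motif that STAT dimers are known to bind and which reads the same on both strands, were searched in 18 RefSeq promoters of the 10 members (GRCh38.p14, each 300 bases long, from 250 before to 50 after the start). The single CISH promoter held 4 of them, and the other 17 promoters held none. Bases outside these windows were not searched, among them the stretch between the windows of SOCS3, which do not adjoin. A count of none therefore does not mean that a gene lacks such a motif. Of 35116 promoters of the same length 7.66% held at least 1 and 7 (0.0199%) held 4 or more. The form with a 4-base spacer, TTCNNNNGAA, was in 1 of the 3 STAT5A promoters and in no other member's, against 6.44% of all promoters. The CISH stretch that holds the 4 motifs runs from 250 to 96 bases before the start (chr3:50611870-50612024, minus strand) and is shown with the motifs in capitals, starting at 241, 230, 129 and 112 bases before the start.
CISH promoter: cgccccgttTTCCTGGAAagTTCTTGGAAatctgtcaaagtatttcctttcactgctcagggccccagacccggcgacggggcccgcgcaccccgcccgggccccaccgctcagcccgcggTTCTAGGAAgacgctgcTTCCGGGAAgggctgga
A match is a description of letters, and the arrays measured no binding at this region.

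PTPN1, the phosphatase that removes phosphate from JAK2 and TYK2, did not share the direction of the feedback inhibitors. Its probe (A_23_P338890) gave 13.56 and 13.61 in EV T, 12.98 and 13.22 in EV IP, 13.59 and 13.53 in sponge T, and 12.90 and 13.23 in sponge IP. Every T channel lay above every IP channel, by a margin under 2-fold. In EV cells IP/T was -0.49 ± 0.20, and in sponge cells -0.49 ± 0.19, a T/IP of 1.40-fold and 1.41-fold.

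Among the kinases, TYK2, which serves the receptors of type I interferon and of the IL-12 family, was lower in IP. Its lead probe (A_23_P153311) gave 12.73 and 12.70 in EV T, 11.50 and 11.47 in EV IP, 12.66 and 13.03 in sponge T, and 11.60 and 11.59 in sponge IP. The second probe (A_23_P141917) gave 10.35 and 10.32 in EV T, 8.99 and 8.66 in EV IP, 10.05 and 10.06 in sponge T, and 8.94 and 8.81 in sponge IP. For both probes all T channels were above all IP channels. IP/T of the lead probe was -1.23 ± 0.04 in EV cells (T/IP 2.34-fold) and -1.25 ± 0.25 in sponge cells (2.38-fold). IP/T of the second probe was -1.51 ± 0.26 (2.85-fold) and -1.19 ± 0.09 (2.28-fold). With normexp correction the second probe lay within 2-fold in EV cells (-0.74 with loess and Aquantile normalisation, -0.79 with quantile normalisation). The lead probe also fell short of 2-fold with loess and Aquantile, at -0.95, and stayed past it with quantile normalisation, at -1.08.

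JAK1, the kinase shared by the interferon, gp130 and common gamma chain receptors, stood on the other side of parity. Its lead probe (A_24_P410678) gave 11.21 and 10.64 in EV T, 11.67 and 11.73 in EV IP, 11.34 and 10.54 in sponge T, and 11.53 and 11.52 in sponge IP. T differed between the dyes by more than IP did in both populations. IP/T had wide errors, at 0.78 ± 0.36 in EV cells and 0.59 ± 0.58 in sponge cells. The second JAK1 probe (A_23_P97005) gave 0.50 ± 0.21 and 0.75 ± 0.26, with T between 8.92 and 9.28 and IP between 9.64 and 9.86. For both probes the IP channels lay above the T channels, by less than 2-fold on average. In EV cells the lead probe passed 2-fold with Cy5 labels alone (1.09) and on the array with IP in Cy3 (1.03).

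JAK2, the kinase of the receptors for erythropoietin, IL-3 and GM-CSF, was the one member whose IP and T channels overlapped. Its probe (A_23_P123608, printed in 10 spots per array) gave 10.35 and 10.07 in EV T, 10.52 and 10.26 in EV IP, 10.34 and 9.96 in sponge T, and 10.41 and 10.21 in sponge IP. In each RNA sample Cy3 read higher than Cy5, and the orientations gave IP/T values of -0.09 and 0.44 in EV cells. The mean, 0.18 ± 0.37, was within its error, as was the sponge value of 0.16 ± 0.41. The SD over the 10 spots of a channel was 0.077 to 0.206.

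**Figure D2:**
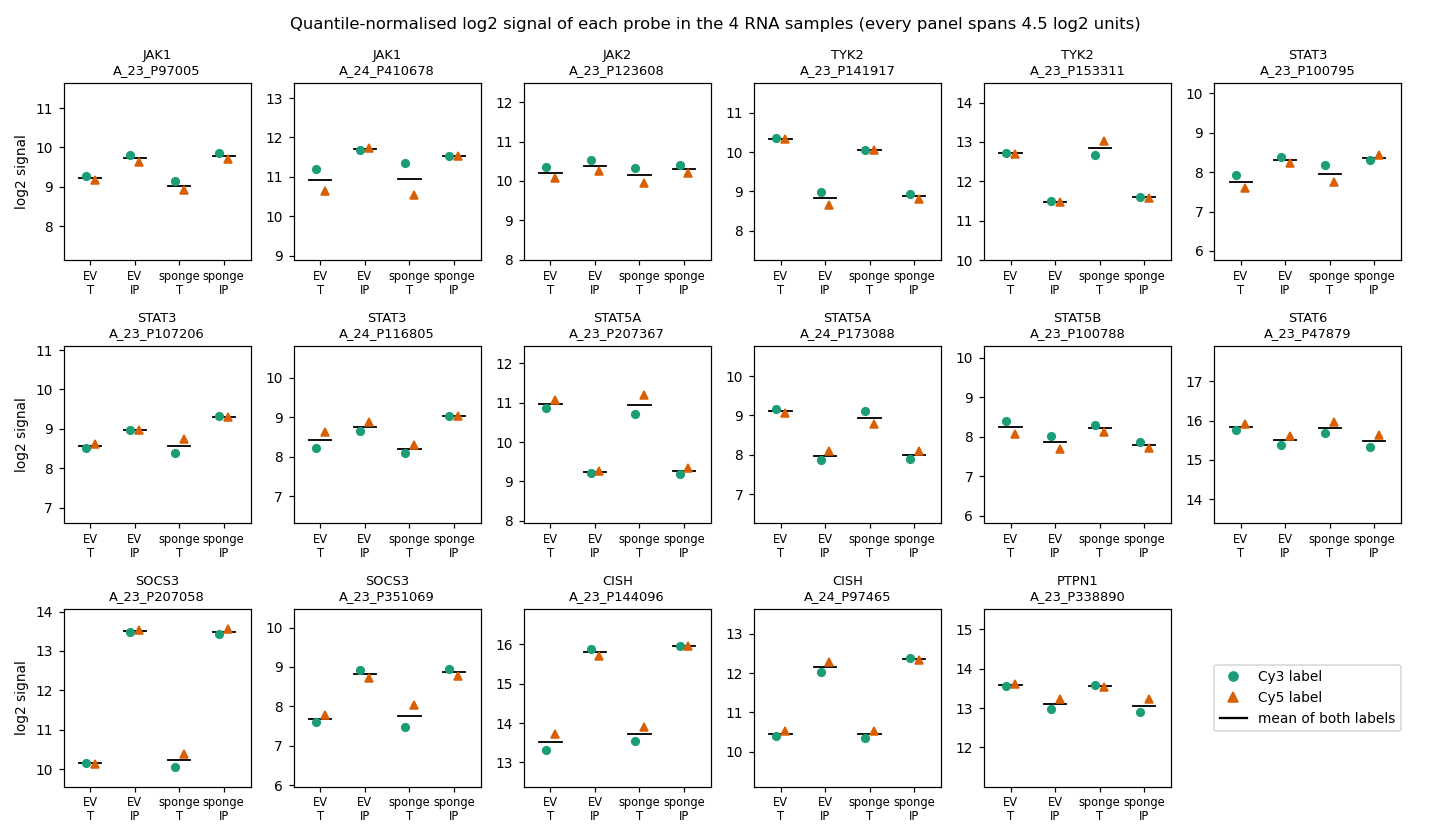
Quantile-normalised log2 signal (y axis) of each of the 17 probes in the 4 RNA samples (x axis), circles for Cy3, triangles for Cy5 and a black bar for the mean of both labels. Every panel spans the same range, so that the steps from T to IP can be compared between probes, while the heights cannot. SOCS3 and CISH step up and TYK2 and STAT5A step down in both populations, and JAK2 is nearly level.

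The STAT transcription factors were divided. STAT5A, which carries signals of IL-2, GM-CSF and prolactin, had the lowest IP/T of the lead probes. That probe (A_23_P207367) gave 10.86 and 11.07 in EV T, 9.21 and 9.27 in EV IP, 10.70 and 11.19 in sponge T, and 9.18 and 9.33 in sponge IP. T exceeded IP by at least 1.37 log2 units in every dye pair on an array. IP/T came to -1.72 ± 0.19 in EV cells (T/IP 3.29-fold) and -1.69 ± 0.46 in sponge cells (3.24-fold), and 3.07% of all kept probes had a lower value in EV cells. The second STAT5A probe (A_24_P173088) gave -1.14 ± 0.10 (2.21-fold) and -0.95 ± 0.10 (1.93-fold). Its T channels ranged from 8.78 to 9.16 and its IP channels from 7.86 to 8.10. Under normexp correction the lead probe was at -1.023 with loess and Aquantile normalisation and at -1.004 with quantile normalisation in EV cells, and the second probe at -0.43 and -0.46.

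STAT5B, the close paralog of STAT5A with largely shared targets, had one probe (A_23_P100788) with 8.40 and 8.07 in EV T, 8.03 and 7.70 in EV IP, 8.31 and 8.11 in sponge T, and 7.86 and 7.71 in sponge IP. Its IP/T was -0.37 ± 0.46 in EV cells, within its error, and -0.43 ± 0.25 in sponge cells. The ranges of the orientations of STAT5A and STAT5B did not meet (-1.86 to -1.58 against -0.70 to -0.04 in EV cells), so that these paralogs had ratios further apart than their dye error. Cross-hybridisation between their transcripts was not tested, since the probe sequences are not in the files used.

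STAT3, the main STAT of IL-6 and IL-10 signals, was slightly higher in IP at all 3 probes. The lead probe (A_23_P107206, 10 spots per array) gave 8.51 and 8.62 in EV T, 8.98 and 8.96 in EV IP, 8.38 and 8.74 in sponge T, and 9.32 and 9.29 in sponge IP. Its IP/T came to 0.41 ± 0.07 in EV cells and to 0.74 ± 0.24 in sponge cells. A_24_P116805 gave 0.33 ± 0.43 and 0.83 ± 0.15, and A_23_P100795 gave 0.56 ± 0.34 and 0.41 ± 0.21. For all 3 probes the 4 IP channels lay above the 4 T channels, with means under 2-fold apart, although the EV value of A_24_P116805 was within its error.

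STAT6, the STAT of IL-4 and IL-13, which Hodgkin cells are known to use, gave 15.75 and 15.92 in EV T, 15.39 and 15.60 in EV IP, 15.68 and 15.96 in sponge T, and 15.32 and 15.63 in sponge IP (A_23_P47879). IP/T came to -0.34 ± 0.27 in EV cells and to -0.34 ± 0.42 in sponge cells. The second of these is within its error, although the 4 T channels lay above the 4 IP channels.

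By separation of channels, 9 of the 17 probes had all 4 IP channels above all 4 T channels (SOCS3, CISH, JAK1 and STAT3), against 33.0% of all kept probes, and 7 had all T channels above all IP channels (TYK2, STAT5A, STAT5B, STAT6 and PTPN1), against 40.4%. Ordered by IP/T of the lead probes in EV cells, SOCS3 came before CISH, then JAK1, STAT3, JAK2, STAT6, STAT5B, PTPN1, TYK2 and STAT5A. The orientation values of STAT3 and JAK2, of STAT6 and STAT5B, and of STAT5B and PTPN1 overlapped, and those of the other neighbours did not. In sponge cells the order was the same except that STAT3 stood before JAK1, and from STAT3 to PTPN1 no neighbours were apart, nor were TYK2 and STAT5A. Within the JAKs the lead probes therefore ran from 0.78 (JAK1) to -1.23 (TYK2) and within the STATs from 0.41 (STAT3) to -1.72 (STAT5A), a spread between close relatives larger than the dye error of 0.04 to 0.36 on these 4 values.

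**Figure D3:**
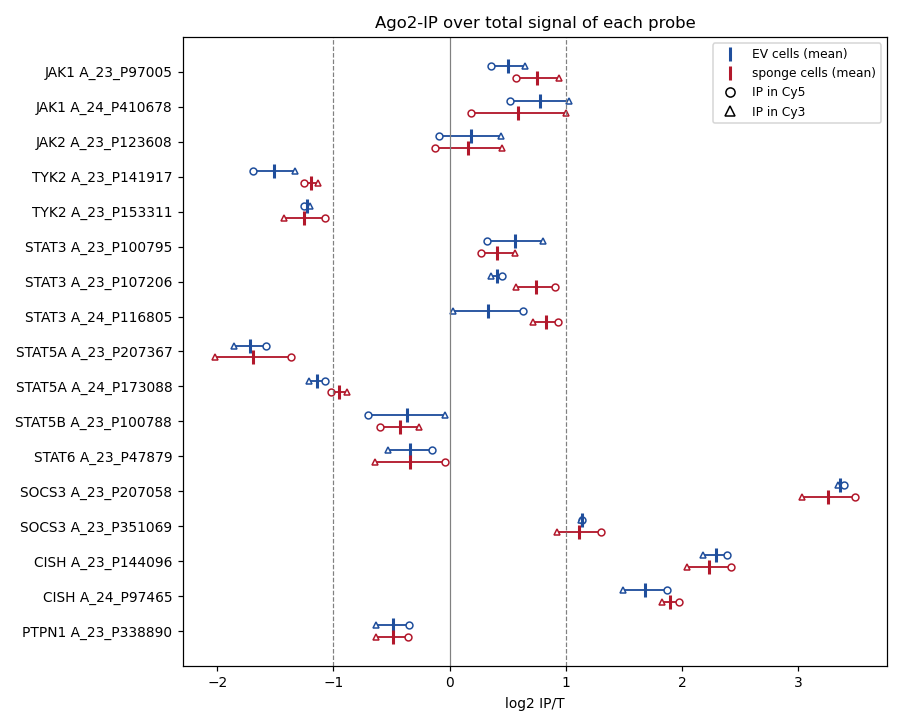
Log2 IP/T (x axis) of each of the 17 probes in EV cells (blue) and sponge cells (red), the tick marking the mean of the 2 orientations, the circle the array with IP in Cy5 and the triangle the array with IP in Cy3. Dashed lines stand at 2-fold. The 4 probes of SOCS3 and CISH have means right of the upper line in both populations, and the blue and red bars of each probe lie close to each other.

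The rest of the pathway was read from lists of 91 further genes in 7 classes, of which 65 had a kept probe. Most of the SOCS family lay on the side of SOCS3 and CISH. Of the SOCS family with CISH (8 genes, 16 probes), 13 probes were kept. Of these, 11 had an IP/T of at least 2-fold in EV cells, in 7 of the 8 genes, against 17.5% of all kept probes. The 13 probes had a median of 2.29, with values from 0.03 to 4.35. The 3 probes not kept, 1 each of SOCS2, SOCS4 and SOCS5, were well above background in 6 or 7 channels. SOCS1, a JAK inhibitor that is also a known miR-155 target, had 4.35 ± 0.19 in EV cells and 4.11 ± 0.56 in sponge cells at its lead probe (A_23_P420196), with 14.03 and 14.36 in EV T against 18.58 and 18.51 in EV IP. SOCS5 (A_23_P5813) had 4.35 ± 0.28 and 4.42 ± 0.05. SOCS2 (A_23_P128215) was the exception in EV cells, at 0.03 ± 0.35, with -0.04 ± 0.16 in sponge cells. SOCS7 passed 2-fold only at its lead probe (A_24_P367211) in EV cells, at 1.12 ± 0.54, with 0.77 ± 0.50 in sponge cells. Its other probe (A_32_P43711) had 0.67 ± 0.83 and 0.80 ± 0.40. SOCS3 and CISH thus fell within the range of their family and were not its highest.

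Over all JAK and STAT genes (11 genes, 18 kept probes) no probe had an IP/T of 2-fold in EV cells, against 17.5% of all kept probes. A T/IP of 2-fold was measured for 4, the probes of TYK2 and STAT5A given above, against 19.0%. The median was -0.28, with values from -1.72 to 0.78, so that the ends of this range were members. JAK3, the partner of the common gamma chain, had -0.75 ± 0.46 in EV cells and -0.99 ± 0.74 in sponge cells (A_24_P308096). STAT4, well above background in 7 channels, had 0.30 ± 0.15 (A_23_P68031). Of the PIAS genes, whose proteins bind and restrain STATs in the nucleus, none of 4 passed 2-fold in either direction, from PIAS1 at 0.77 ± 0.14 through PIAS3 at -0.18 ± 0.01 to PIAS4 at -0.40 ± 0.11, with a median of -0.23.

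Of 9 other phosphatases and adaptors, 5 had an IP/T of 2-fold in EV cells and none a T/IP of 2-fold. Over the lead probes of all named genes these shares were 18.1% and 18.8%. STAM2 and STAM, adaptors that bind JAKs and sort receptors, had 2.46 ± 0.04 and 1.29 ± 0.10, and PTPN6 (SHP-1), a phosphatase like PTPN1 in its action on JAKs, had -0.59 ± 0.29, near the PTPN1 value of -0.49 ± 0.20. Of 36 receptor chains, 21 were kept, 6 with an IP/T and 3 with a T/IP of 2-fold, from IFNGR2 at 2.39 ± 0.05 and IFNLR1 at 2.46 ± 0.30 (6 channels above background) to IL12RB1 at -1.09 ± 0.40. Of 17 ligands, 8 were kept, 6 with an IP/T and 1 with a T/IP of 2-fold. Both cytokines that act through STAT6 were among these, on opposite sides, IL13 at 3.09 ± 0.28 and IL4 at -1.36 ± 0.30. OSM, a cytokine of the gp130 family, had 2.47 ± 0.16. A class in which many probes are dim in T passes the filter more easily where IP is high, so the counts of receptors and ligands are not shares of these classes.

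Of 16 genes that STATs are known to switch on, 14 were kept, 8 with an IP/T and 1 with a T/IP of 2-fold in EV cells, and the class median was 1.36. MCL1, which protects cells from death, had 2.86 ± 0.07 and MYC, a driver of growth, had 2.49 ± 0.27, while FCER2 (CD23) had -1.28 ± 0.39 (7 channels). CISH at 2.29 and SOCS3 at 3.36, themselves STAT targets, lay on the same side as these 8 genes with an IP/T of 2-fold. MCL1 and MYC were named as the highest of the class. Apart from FCER2, the kept genes outside the 8 lay within 2-fold of parity, some of them lower in IP than in T. Over the 65 kept genes outside the members, 29 had an IP/T and 5 a T/IP of 2-fold, with a median of 0.49. For the lead probes of all named genes the shares were 18.1% and 18.8% and the median -0.16. The total of 65 includes the receptors and ligands, so its counts are likewise not shares of the pathway.

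**Figure D4:**
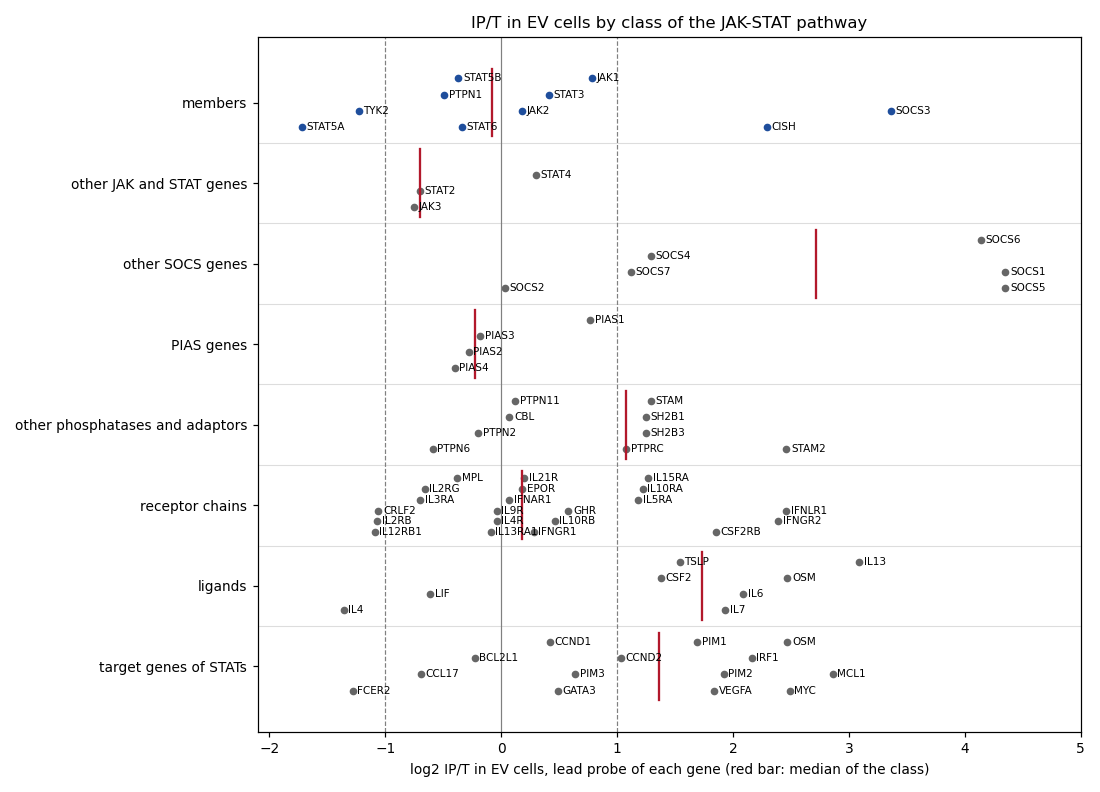
Log2 IP/T in EV cells (x axis) of the lead probe of each kept gene (1 gene of the class of other JAK and STAT genes is not drawn), by class of the pathway (y axis; points are spread vertically within a class for legibility), with a red bar at the median of the genes drawn and dashed lines at 2-fold. The members (blue) span the plot, with SOCS3 and CISH on the side where 5 of the 6 other SOCS genes lie and STAT5A and TYK2 beyond the other JAK and STAT genes.

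Between the populations the members differed little, as did most probes on the array. No member probe differed by 1.5-fold with the same sign in both dyes in T, against 2.92% of all kept probes, and none in IP, against 1.5% (338 of 22470 probes). By the study's criterion for a transcript that leaves Ago2 under the sponge, enrichment of 2-fold or more in EV cells where the sponge ratio is lower by 2-fold or more, no member was counted, against 0.0935% of all kept probes (21). These background shares are so low that a count of 0 among 17 probes says little by itself. The paper counted fewer probes by its criterion in these cells. It proposes that the sponge did not capture all miR-155, probably because the cells hold so much of it. How far the sponge lowered free miR-155 was not measured here. Over the 17 probes the difference between sponge and EV cells ran from -0.28 to 0.21 in T and from -0.17 to 0.33 in IP. The change in IP/T ran from -0.19 to 0.49. Over all kept probes the quartiles were -0.14 and 0.12 in T and -0.13 and 0.14 in IP. For the change they were -0.13 and 0.16. The median size of the difference over the 17 probes was 0.063 in T and 0.059 in IP, against 0.130 and 0.131 over all kept probes. For the change it was 0.102 against 0.149. Small differences were thus common on the array, and at the median those of the members were smaller still. The reason was not tested. In bulk RNA such as this, a change in the number of expressing cells and a change in RNA per cell cannot be told apart.

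**Figure D5:**
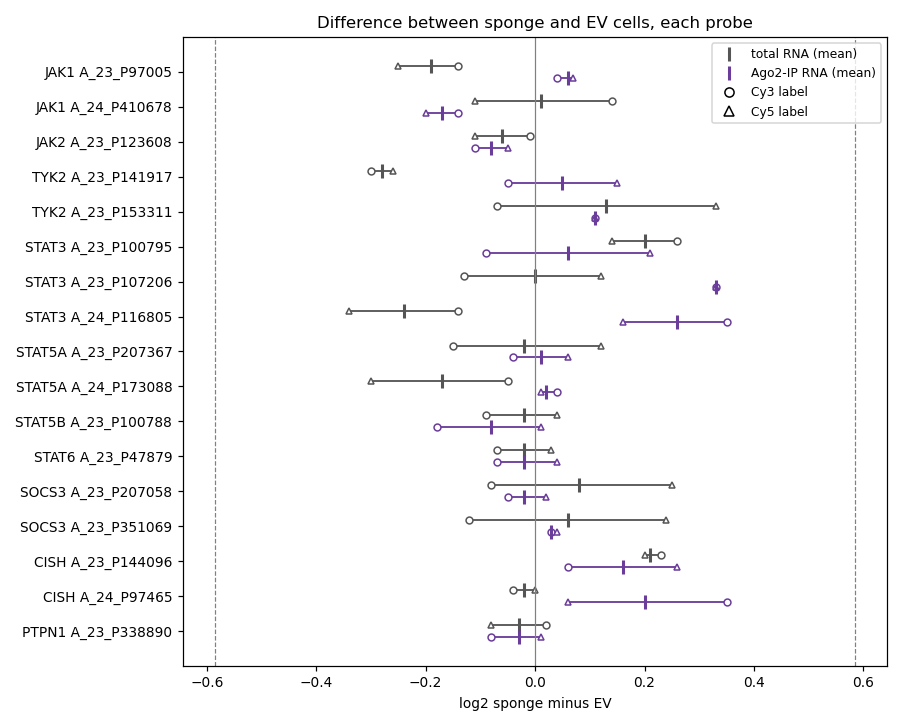
Log2 difference between sponge and EV cells (x axis) of each of the 17 probes in T (grey) and in IP (purple), the tick marking the mean of both dyes, the circle Cy3 and the triangle Cy5. Dashed lines stand at 1.5-fold. All values lie between the lines, and the bars of many probes cross 0.

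The largest difference in IP belonged to STAT3. At the lead probe the sponge cells were higher by 0.33 in Cy3 and by 0.33 in Cy5 (1.26-fold), and at A_24_P116805 by 0.35 and 0.16 (mean 0.26 ± 0.14, 1.19-fold). At the other STAT3 probe, A_23_P100795, the values were -0.09 and 0.21. The 3 probes of one gene thus did not give one answer, and 94.4% of all kept probes had a lower difference in IP than the lead probe. In T the lead probe had -0.13 and 0.12, A_24_P116805 had -0.24 ± 0.14 and A_23_P100795 had 0.20 ± 0.08. The change in STAT3 IP/T was accordingly 0.34 ± 0.17, 0.49 ± 0.28 and -0.14 ± 0.13. With normexp, loess and Aquantile the difference in IP at the first pair of probes was 0.07 and 0.08.

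For the inhibitors the sponge cells were close to the EV cells. CISH in T was 0.21 ± 0.02 higher at its lead probe (1.16-fold) and -0.02 ± 0.03 at the second, and in IP it was 0.16 ± 0.14 and 0.20 ± 0.21. SOCS3 in IP was -0.02 ± 0.05 and 0.03 ± 0.01, and in T 0.08 ± 0.24 and 0.06 ± 0.25, where the 2 dyes disagreed in sign at both probes. The IP/T change of SOCS3 was -0.10 ± 0.29 at the lead probe and that of CISH -0.06 ± 0.12. PTPN1 was -0.03 ± 0.07 in T and -0.03 ± 0.06 in IP. For SOCS3, PTPN1 and the lead CISH probe the change in IP/T was thus within its dye error, and the second CISH probe had 0.22 ± 0.18.

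Of the kinases, TYK2 at its second probe was lower in sponge T, with differences of -0.30 in Cy3 and -0.26 in Cy5, but its lead probe gave -0.07 and 0.33. JAK1 at its second probe had -0.19 ± 0.08 in T, and 0.01 ± 0.17 at its lead probe. JAK2 had -0.06 ± 0.08 in T and -0.08 ± 0.04 in IP. No kinase with 2 probes thus showed one direction in T at both. Among the remaining STATs, STAT5A gave -0.02 ± 0.20 and -0.17 ± 0.18 in T and 0.01 ± 0.07 and 0.02 ± 0.02 in IP. STAT5B gave -0.02 ± 0.09 in T and -0.08 ± 0.13 in IP, and STAT6 gave -0.02 ± 0.07 and -0.02 ± 0.08.

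The EV and sponge channels in T did not overlap for 2 of the 17 probes (second probes of JAK1 and TYK2), against 33.7% of all kept probes, and in IP for 6 (the lead probes of JAK1, TYK2 and STAT3, STAT3 A_24_P116805 and both CISH probes), against 50.1%. A difference larger than its dye SD was measured for 5 member probes in T and 9 in IP, against 50.6% and 64.6% of all kept probes. The change in IP/T was larger than its SD for 7, against 53.1%. At the lead probes its median was -0.02 ± 0.16, against 0.02 over all kept probes. Each of these counts, out of 17 member probes, was a smaller share than that of all kept probes. By these counts the members thus differed less between the populations than the array did, which was not tested.

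The patterns nearest to the 2 extreme members were looked up over the 8 channels, each probe centred on its mean, by Euclidean distance. Nearest to the lead probe of SOCS3 were MED19 (0.258), ATG16L1 (0.315) and DUSP2 (0.320), with IP/T values of 3.31 ± 0.18, 3.28 ± 0.09 and 3.30 ± 0.01 in EV cells. Nearest to the lead probe of STAT5A were USE1 (0.205), BCS1L (0.219) and RITA1 (0.224), with -1.73 ± 0.23, -1.60 ± 0.16 and -1.64 ± 0.09. The distance is taken over the same channels that give IP/T, so the nearest probes have a similar IP/T by construction. No other member was among them, which follows from their different ratios.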

How the data were processed

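Scanner files of 4 arrays were used, each deposited under both of its samples. Per the file headers, the authors extracted spot intensity with Agilent Feature Extraction 10.7.3.1 (the submitters' processing notes name version 10.5.1.1), which subtracts background and corrects for dye. Here control spots and spots marked as outliers were left out, spots of a probe averaged, and log2 processed signals quantile normalised over 8 channels (limma 3.58.1, R 4.3.3). Probes well above background in at least 4 channels, with Cy3 and Cy5 within 2-fold in each RNA sample, were kept (22470 of 41000). In the deposited table of the whole series, the authors' log2 values (normalised) cover 22282 probes, including the 17 of the members, and served as an alternative. It has the direction and scale of log2 signal, its column medians run from 9.854 to 9.903, and, per the study's methods, it was quantile normalised (GeneSpring). Its columns lay within 0.00301 (median distance) of the values used here, so it is close to the same setting.

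Accessions were named through RefSeq (GRCh38.p14), for names only, since the array annotation follows hg18. Normexp (offset 50) used median signals, because the files hold no mean signal. With 1 RNA sample per group no test was run, and precision is limited by the number of arrays. The members and lists were chosen with earlier results of these data known. Named beside the members are JAK3, SOCS1 and, per class, the 2 lead probes of highest and the 1 of lowest IP/T. SOCS7 was added after its values were seen. Other genes under the closing observations were chosen after their values were seen. The values of 1 further gene are not reported here. The computation was tested on simulated data.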

Additional observations from a re-analysis of the deposited data

How the results depend on the processing

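Of the 17 member probes, all were kept under every filter tried except Cy3 and Cy5 within 1.5-fold, which kept 16. With single dyes or orientations the filter could not be recomputed. Normexp with loess and Aquantile left 1 probe each in EV and sponge cells with a T/IP of at least 2 (4 and 3 as reported), and turned the median log2 IP/T of the lead probes in EV cells from -0.081 to 0.118, while the median of all kept probes moved from -0.157 to 0.008. Over all kept probes, 2232 then reached an IP/T of 2 in EV cells in place of 3924, and 1941 with normexp and quantile normalisation. Normexp with quantile normalisation left 2 probes with a T/IP of at least 2 in EV cells. On arrays with IP in Cy3 only, this median came to 0.158 (EV) and 0.096 (sponge). The causes were not tested. Under both normexp settings 3 probes had an IP/T of at least 2 in each population. With 1 dye only (Cy5 or Cy3), IP/T of at least 2 was met by 4 and 4 probes in EV cells (with Cy5 the second SOCS3 probe dropped out and the lead JAK1 probe came in) and 3 to 4 in sponge cells, T/IP of at least 2 by 3 to 4 and by 3 to 4, and the medians were -0.095 to -0.068 in EV cells, -0.147 to -0.026 in sponge cells and -0.045 to -0.016 for the change. Counts of probes that differed by 1.5-fold between the populations, or met the study's criterion, were 0 under all alternatives. All 64 recomputed values in EV cells and 56 in sponge cells of probes at 2-fold kept their sign, but these probes were picked for lying far from parity. Over all member probes, 1 of 136 recomputed IP/T values in EV cells and 1 of 136 in sponge cells had the other sign. Of the differences, which lay nearer parity, 33 of 136 in T and 22 of 136 in IP had the other sign. No paired test was possible because each group is 1 RNA sample. IP and T of one population did share an array, and the SDs of IP/T are over these arrays.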

Other observations

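Of the 65 kept pathway genes outside the members, VEGFA and IFNLR1 differed by 1.5-fold or more in T between the populations at their lead probes. Over all kept probes 2.92% did so with the same sign in both dyes. The count is thus near the background and no result about the pathway. VEGFA (A_23_P70398), a growth factor of blood vessels, was 0.60 ± 0.11 higher in sponge cells in T and 0.44 ± 0.03 higher in IP. IFNLR1 (A_23_P74112), a receptor chain for interferon lambda, was 0.74 ± 0.47 higher in T, where only 1 of 2 channels per population rose well above background. Differences larger than the dye SD were common on the array (50.6% of all kept probes had a difference above their dye SD in T, 64.6% in IP), and the following were picked from many after their values were seen. SOCS6, of the SOCS family, had a lower IP/T in sponge cells at both of its probes. At A_24_P91272 IP/T was 4.14 ± 0.01 with the empty vector and 3.85 ± 0.13 with the sponge, a change of -0.29 ± 0.13, and at A_23_P207981 it was 3.20 ± 0.05 against 2.69 ± 0.21, a change of -0.51 ± 0.16. The larger part of this lay in T, which was 0.17 ± 0.03 and 0.65 ± 0.22 higher in sponge cells, while IP differed by -0.12 ± 0.10 and 0.15 ± 0.05. PTPN6 (A_23_P162486), the phosphatase SHP-1, was 0.38 ± 0.08 higher in sponge cells in T and 0.34 ± 0.07 higher in IP, with little change in its ratio. IL4 (A_23_P213706) was 0.16 ± 0.09 higher in T and 0.49 ± 0.20 higher in IP, whereas IL13 (A_23_P251031) had -0.11 ± 0.07 and -0.34 ± 0.08.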
